A study of Homo sapiens with 4 samples.

Results

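NF-κB inhibitors and feedback genes are genes whose products hold back, shut off or otherwise adjust NF-κB signalling. The set held 8 genes, NFKBIA, NFKBIB, NFKBIE, NFKBIZ, BCL3, TNFAIP3, TNIP1 and CYLD, of 19970 protein-coding genes, and membership was set by gene name. Around their transcription start sites lay 494 of the 307691 accessible sites of the series. A site was one merged stretch of overlapping peaks from the 4 peak lists, and it belonged to a gene when it lay within 100 kb of any annotated start of that gene. No site belonged to more than 1 of the 8 genes.

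Open chromatin was mapped by ATAC-seq, an assay in which a hyperactive transposase (Tn5) cuts and tags exposed DNA. SKBR3 cells, an established HER2-positive breast cancer line, were either left untreated (2 libraries) or treated for 48 h with 10 ng/ml TWEAK, a cytokine of the TNF family (2 libraries), following 8 h of starvation in optiMEM and with TWEAK renewed at 24 h. No knockout, transgene or inhibitor was involved, and both groups were the same line. The comparison asked which regulatory sites around these genes were more or less open when the TWEAK receptor Fn14 was engaged.

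NF-κB is a family of dimeric transcription factors that wait in the cytoplasm bound to IκB proteins. Upon stimulation, ubiquitin chains recruit the IκB kinase complex, IκB is degraded and the dimers enter the nucleus, where they bind κB sites and switch on, among others, the genes of their own inhibitors. IκB proteins capture the dimers again, while the ubiquitin editor A20 (TNFAIP3), its partner ABIN1 (TNIP1) and the deubiquitinase CYLD dismantle the ubiquitin chains upstream. TWEAK is known for sustained activation of the non-canonical arm of this pathway, in which p100 is processed to p52.

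The DNA under the leading sites is shown first, because many of the largest differences lay at sites that hold a κB sequence. Sequences run 5′ to 3′ on the plus strand of hg38 and come from the 201 bases around the centre of the best-ranked peak, shortened where they met an untranslated region. Capitals mark each match to the NF-κB consensus on either strand. The first 9 are member sites with a match whose counting intervals in both TWEAK libraries lay above those in both untreated ones, and the last pair are the start sites of TNFAIP3 and NFKBIA, which hold a match and were not set apart in this way.
TNIP1, 60.7 kb upstream, chr5:151141656-151141845: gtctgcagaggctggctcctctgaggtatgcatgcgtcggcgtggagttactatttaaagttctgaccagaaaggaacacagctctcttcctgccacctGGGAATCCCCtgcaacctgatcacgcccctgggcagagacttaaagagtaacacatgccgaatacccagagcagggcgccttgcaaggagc
TNIP1, 13.2 kb upstream, chr5:151094154-151094354: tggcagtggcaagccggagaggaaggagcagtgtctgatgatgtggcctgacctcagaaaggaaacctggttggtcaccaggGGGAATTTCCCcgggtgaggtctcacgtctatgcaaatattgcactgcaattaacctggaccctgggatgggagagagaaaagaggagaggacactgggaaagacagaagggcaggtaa
TNIP1, 6.2 kb upstream, chr5:151087167-151087317: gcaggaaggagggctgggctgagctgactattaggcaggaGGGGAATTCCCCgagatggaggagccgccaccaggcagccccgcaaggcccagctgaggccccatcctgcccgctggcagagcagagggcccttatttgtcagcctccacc
TNIP1, 2.5 kb upstream, chr5:151083437-151083637: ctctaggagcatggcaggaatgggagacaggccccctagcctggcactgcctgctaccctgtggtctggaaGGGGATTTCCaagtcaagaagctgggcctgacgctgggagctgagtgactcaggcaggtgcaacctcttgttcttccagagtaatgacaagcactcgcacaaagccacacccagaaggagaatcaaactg
TNFAIP3, 6.2 kb downstream, chr6:137873396-137873596: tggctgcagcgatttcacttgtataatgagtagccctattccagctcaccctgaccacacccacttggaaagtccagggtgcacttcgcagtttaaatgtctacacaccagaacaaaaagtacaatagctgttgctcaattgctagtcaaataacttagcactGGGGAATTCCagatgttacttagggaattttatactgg
TNFAIP3, 7.1 kb downstream, chr6:137874240-137874440: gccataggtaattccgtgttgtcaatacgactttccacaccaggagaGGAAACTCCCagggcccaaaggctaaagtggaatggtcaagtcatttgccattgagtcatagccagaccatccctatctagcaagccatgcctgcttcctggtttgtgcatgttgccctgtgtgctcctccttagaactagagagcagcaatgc
BCL3, 9.6 kb upstream, chr19:44738998-44739198: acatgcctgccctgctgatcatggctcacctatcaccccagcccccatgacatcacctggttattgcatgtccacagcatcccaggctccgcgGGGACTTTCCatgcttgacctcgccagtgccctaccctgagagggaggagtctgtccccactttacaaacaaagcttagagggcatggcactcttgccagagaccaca
BCL3, 16.5 kb downstream, chr19:44765091-44765291: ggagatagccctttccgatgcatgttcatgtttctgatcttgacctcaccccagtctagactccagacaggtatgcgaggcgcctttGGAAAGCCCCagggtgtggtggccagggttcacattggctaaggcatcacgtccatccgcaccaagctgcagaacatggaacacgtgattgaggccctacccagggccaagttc
CYLD, 44006 bp upstream, chr16:50698040-50698180: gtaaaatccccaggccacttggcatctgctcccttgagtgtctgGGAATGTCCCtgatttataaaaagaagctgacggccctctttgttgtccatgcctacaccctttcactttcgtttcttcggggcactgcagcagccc
TNFAIP3, start site, chr6:137867132-137867213: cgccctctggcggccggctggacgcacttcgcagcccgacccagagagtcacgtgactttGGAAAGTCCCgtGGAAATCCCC
NFKBIA, start site, chr14:35404750-35404859: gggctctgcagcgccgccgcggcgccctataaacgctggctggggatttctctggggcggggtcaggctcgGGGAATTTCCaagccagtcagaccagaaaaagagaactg

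The run at 6.2 kb upstream of TNIP1 holds 3 overlapping matches, and the runs at 13.2 kb upstream of TNIP1 and at the TNFAIP3 start hold 2 each. The sites 2.5 kb upstream of TNIP1 and 7.1 kb downstream of TNFAIP3 also hold the AP-1 sequence TGACTCA on one strand or the other. In RefSeq promoter windows on hg38, from 250 bases before to 50 after a start, 9 of 12 windows of the members held an NF-κB match, against 11.3% of all 34961 windows. Each of the 7 members with a window, all but NFKBIE, had a match in at least 1 of its windows. A match is a letter pattern and does not show that the factor was bound.

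A pair of measures was read from each peak. The rank percentile placed the peak among all peaks of its own list, 100 being the strongest. The fold over background divided the pileup of fragments under the peak, recovered from the deposited significance value, by the background of the list. The lists held between 195388 and 228734 peaks, and the backgrounds lay between 1.85 and 3.59, so that the weakest listed peaks stood at 2.79 to 3.79 times the background. A peak missing from a list does not show closed chromatin. It can lie under that limit, and some strong sites also lacked a peak in a single list, such as a site 0.8 kb downstream of the NFKBIA start with 58.3 times the background in untreated replicate 1, none listed in untreated replicate 2, and 62.3 and 57.9 in the TWEAK libraries. The median fold over background of sites shared by all 4 lists was 12.5 and 14.8 in untreated replicates 1 and 2, and 15.6 and 16.8 in TWEAK replicates 1 and 2, which moves with treatment. Some counts are therefore also given with this median divided out. The counts by ratio and by NF-κB match, and most of those for single genes, are not. Of 10 genes that mark luminal epithelium or are amplified in the line, 9 had a peak at their start in all 4 libraries and CDH1 had none. Of 8 genes of other cell types, 3 had none and 2, CD14 and COL1A1, had one in all 4 libraries. With 2 libraries against 2, an exact permutation test cannot give a two-sided p below 0.333, and no model was fitted across sites to the recovered pileups. Each count is therefore a description set beside the share of all sites or genes called by the same rule. The methods call the replicates of cell lines biological.

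Around the 8 genes, a subset of sites that were already open in untreated cells was several times stronger in both TWEAK libraries. A peak was present in all 4 lists at 233 of the 494 sites. Of these shared sites, 57 (24.5%) ranked higher in both TWEAK libraries than in either untreated one, against 15.8% of all shared sites. TNIP1 and TNFAIP3 held 31 of the 57, at 44.9% of their 69 shared sites, and the other 6 genes held 26 of 164 (15.9%), a share near that of all shared sites. This division of the members was made after their values were seen. A further 65 (27.9%) ranked lower in both, against 35.4% of all shared sites, and at the other 111 the groups overlapped. When sites were instead ranked among shared sites only, a comparison chosen after the data were seen, 73 member sites (31.3%) were higher and 52 (22.3%) lower, beside 23.3% and 28% of all shared sites. With the fold over background divided by its median over shared sites, 56 were higher and 72 lower, beside 18.5% and 36.4%. The pooled share of member sites ranked higher was above that of all sites under each of these 3 scalings, but without TNIP1 and TNFAIP3 it was 23.2% by rank among shared sites and 16.5% by scaled fold, at or below the share of all shared sites. Without untreated replicate 2 the shares ranked higher were 34.7% of member sites and 31.4% of all shared sites. Which direction was the more frequent depended on the scaling. The member was the nearest gene at 188 of the 494 sites and at 34 of the 57 that ranked higher. TNIP1 and TNFAIP3 held 47 and 35 of the 188, and 14 and 10 of the 34.

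Gained and lost sites were few. A peak in both TWEAK lists and in no untreated list was found at 22 sites (4.45%, against 3.6% of all sites), and the reverse at 8 sites (1.62%, against 3.79%). Most gained sites were weak, since 15 of the 22 lay below the 50th percentile in both TWEAK libraries and 6 had an untreated peak within 500 bp. Of the 8 lost sites, 7 were as weak in both untreated lists.

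**Figure D1:**
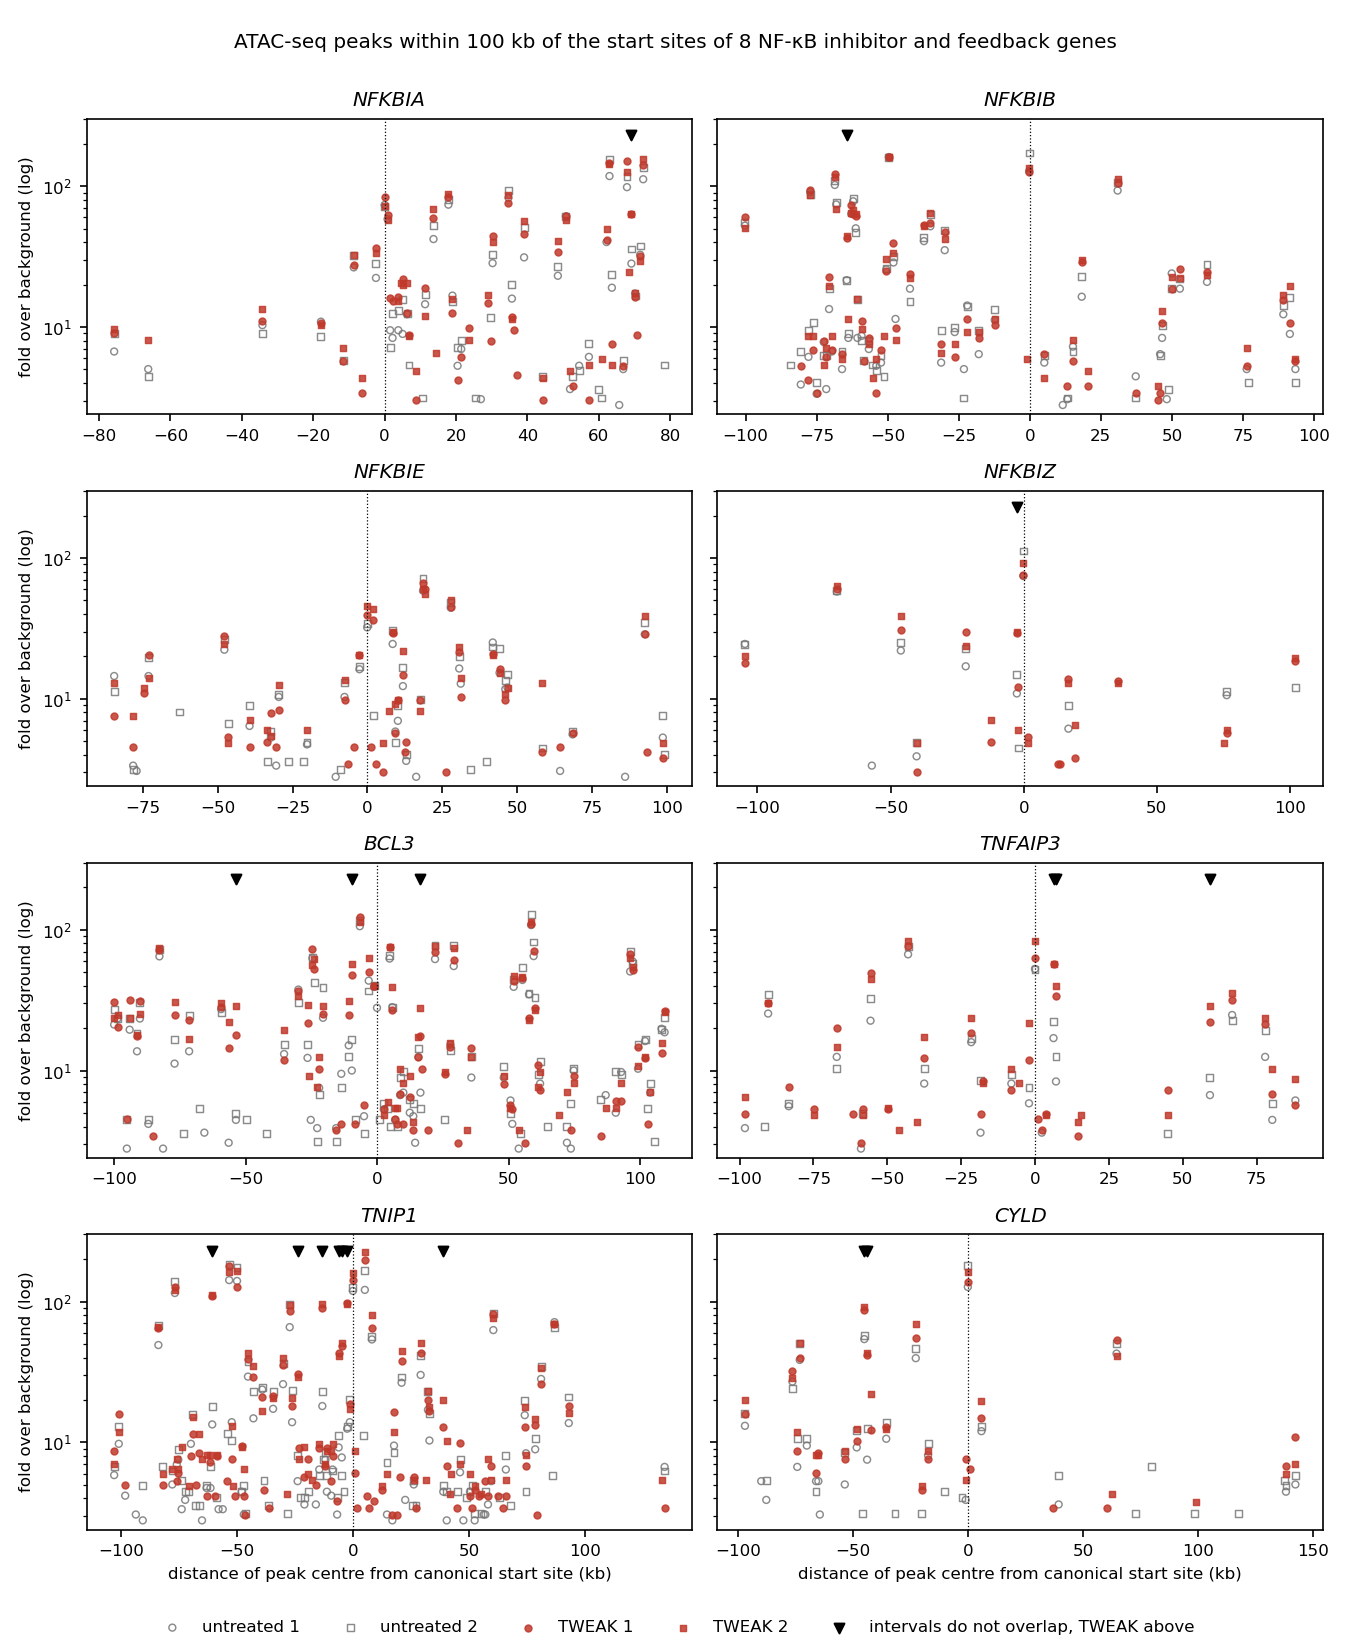
Fold over background (log axis) of every peak within 100 kb of a start site of the 8 genes, against the distance of the site's centre from the canonical start, in kb along the direction of transcription. Open grey symbols are the 2 untreated libraries and filled red symbols the 2 TWEAK libraries. Black triangles mark shared sites whose TWEAK counting intervals lie above both untreated ones, 18 in the plot, 3 of them around TNFAIP3 and none around NFKBIE. A pair of sites not reported individually is left out of the plot.

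A stricter comparison, chosen after the data were seen, asked whether the difference exceeded the counting error of the fragments as well as the gap between replicates. For each pileup an exact 95% Poisson interval was computed, and a site was set apart when the intervals of both TWEAK libraries lay above those of both untreated libraries. Such intervals cover counting error only. This held at 20 of the 233 shared sites (8.58%), against 2.72% of all shared sites. TNIP1 and TNFAIP3 held 11 of the 20, and the other 6 genes held 9 at 164 shared sites (5.49%). At least 1 such site was found at 7 of the 8 genes, which had 9 to 54 shared sites each, and at 32.2% of all genes with as many shared sites. Of these 20, 18 are described individually. The reverse held at 1 site (0.429%), against 0.186% of all shared sites. After division by the median of shared sites, 16 sites met the rule (6.87%), against 1.75%. Of the 20 sites, TNIP1 had 8, TNFAIP3 and BCL3 had 3 each, NFKBIA and CYLD had 2 each, and NFKBIB and NFKBIZ had 1 each. NFKBIE had none. The member was the nearest gene at 11 of the 20. By position, 7 lay within 1 kb of an annotated start, 7 in introns and 6 between genes. In all 20, the peaks compared overlapped between the 4 lists.

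The ratio of the mean fold over background in TWEAK to that in untreated libraries gave a similar picture. It was 2 or more at 23 shared member sites (9.87%), against 4.5% of all shared sites. TNIP1 and TNFAIP3 held 14 of the 23, and the other 6 genes held 9 at 164 shared sites (5.49%). All 23 ranked higher in both TWEAK libraries. It was 0.5 or less at 1 member site, against 0.304% of all shared sites. The median ratio over member sites, 1.11, was nearly that of all shared sites, 1.1, so the middle of the member sites matched that of the series and the large ratios belonged to a limited number of sites.

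Those sites often held a κB sequence. An NF-κB match lay within 100 bp of the peak centre at 49 of the 494 member sites (9.92%), against 6.21% of all sites. Of 33 shared member sites with a match, 20 (60.6%) ranked higher in both TWEAK libraries and 4 (12.1%) lower. Those 20 were 8 of 10 such sites at TNIP1, 4 of 8 at BCL3, and 3 of 4 each at NFKBIA and TNFAIP3. A further 1 of 2 each lay at NFKBIE and CYLD, and none at NFKBIB or NFKBIZ. Of the 200 shared member sites without a match, 37 (18.5%) ranked higher and 61 (30.5%) lower. Over all shared sites, 33.5% with and 14.7% without a match ranked higher, and 23.4% and 36.2% ranked lower. Among the 20 sites set apart by their counting intervals, 11 (55%) held a match, against 30.6% of all sites set apart in this way. The AP-1 sequence was found at 4 of the 20, and at 21.1% of member sites and 22.1% of all sites that ranked higher. Of the gained member sites, 3 of 22 (13.6%) held an NF-κB match, against 20.1% of all gained sites.

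**Figure D2:**
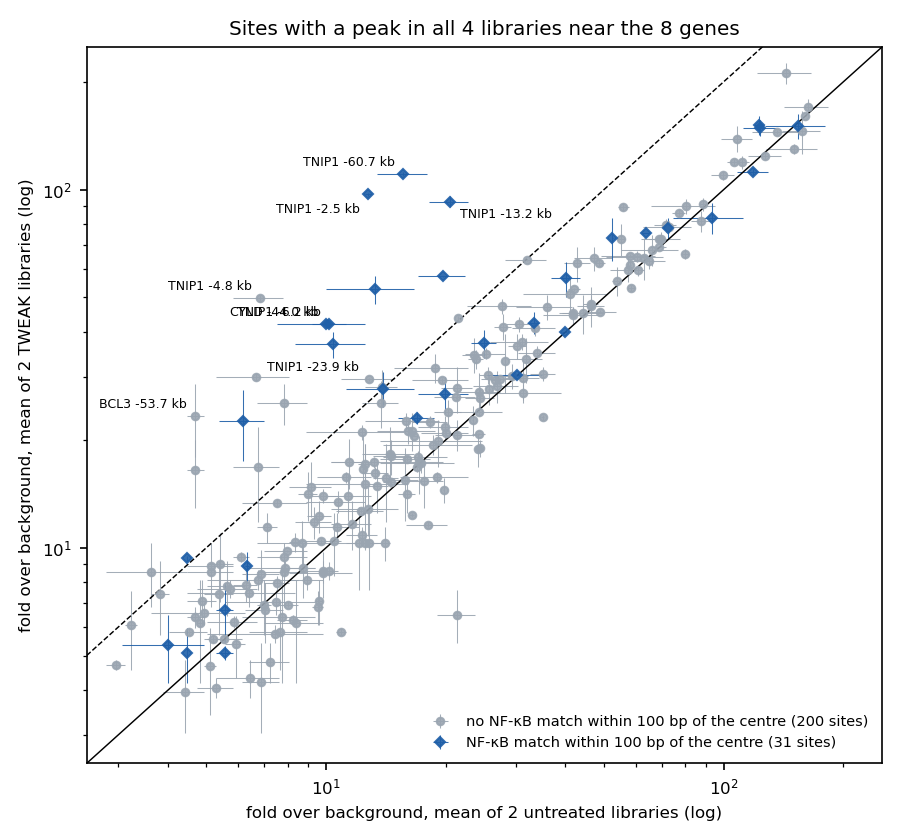
Mean fold over background in the 2 TWEAK libraries against that in the 2 untreated libraries (log axes) for 231 of the 233 member sites with a peak in every library, with bars from the lower to the higher replicate. Blue diamonds are 31 sites with an NF-κB match and grey circles the 200 without one. The solid line marks equal values and the dashed line a ratio of 2, and 21 sites lie on or above the dashed line, 11 of them with a match.

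Of the classical IκB genes, NFKBIA encodes IκBα, the rapidly resynthesised inhibitor of RelA and p50 dimers (ENSG00000100906.12, chr14:35401079-35404749, minus strand). Its start site was strongly open in every library. The fold over background there was 73.6 and 71.1 in untreated and 83.2 and 72.6 in TWEAK replicates 1 and 2, and the percentiles of the groups overlapped. Of 28 shared sites of the locus, 6 ranked higher and 8 lower in TWEAK, or 10 and 8 by rank among shared sites alone. By scaled fold, 8 were higher and 10 lower. A site 69.1 kb downstream (chr14:35335389-35335917, nearest start that of PSMA6) had 28.2 and 35.8 in untreated and 63 and 63.9 in TWEAK libraries. Both TWEAK values of this site lay above both untreated values.

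The single member site with TWEAK intervals below both untreated ones also belonged to NFKBIA. It lay 63.6 kb downstream, with a fold over background of 19 and 23.7 in untreated and 7.6 and 5.41 in TWEAK libraries. The site was 1634 bp wide and its peaks did not all overlap between lists, so the values come from neighbouring stretches of DNA. The adjoining site at 63.0 kb, the strongest of the locus, differed little, with 118 and 154 in untreated and 147 and 143 in TWEAK libraries. NFKBIA had 4 gained sites, all of which had NFKBIA as their nearest gene, and 1 lost site. The strongest gained site, 29.0 kb downstream, reached the percentiles 66.9 and 64.1, and an untreated peak lay 165 bp away. The gained sites 8.7 kb downstream and 6.3 kb upstream lay at or below percentile 12.3.

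NFKBIB, encoding IκBβ, the more slowly responding IκB (ENSG00000104825.17, chr19:38899700-38908893, plus strand), had 38 shared sites, of which 3 (7.89%) ranked higher and 11 (28.9%) lower. By scaled fold, 3 were likewise higher and 11 lower. By rank among shared sites alone, 7 were higher and 6 lower, so the direction of the balance depended on the scaling. It was the single member with fewer sites in both TWEAK lists (52 and 51) than in either untreated list (54 and 55), a pattern shared by 24.1% of all genes. The site over its start, which also covers the start of the neighbouring gene SIRT2, had percentiles of 99.3 and 99.6 in untreated and 99 and 98.9 in TWEAK libraries. The fold over background at this start was 128 and 172 in untreated and 126 and 134 in TWEAK libraries. These values overlapped between groups, but the start was lower in TWEAK by both ranks and after division by the median over shared sites. A single site was set apart by its intervals, 64.4 kb upstream in an intron of a neighbouring gene, with 21.5 and 21.5 in untreated and 42.9 and 44.4 in TWEAK libraries. NFKBIB was the nearest gene at 1 of its 64 sites, so its locus mostly describes its neighbours. Both gained sites were faint, at or below percentile 12.3.

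NFKBIE, encoding IκBε (ENSG00000146232.17, chr6:44258166-44265788, minus strand), had 22 shared sites, of which 2 ranked higher and 10 lower. Of these 2, 1 was its own start, 64 bp upstream of the canonical position, where percentiles were 86.4 and 86.2 in untreated and 87.8 and 87.5 in TWEAK libraries. The fold over background at the NFKBIE start was 32.1 and 34.4 in untreated and 39.5 and 45.5 in TWEAK libraries, a ratio of 1.28, and these values overlapped between groups once divided by the median over shared sites. A larger difference lay in an intron 1.9 kb downstream (chr6:44263352-44263862), where untreated replicate 1 listed no peak, untreated replicate 2 had 7.6, and the TWEAK libraries had 36.5 and 43.3 times the background. This site held an NF-κB match. Because it was missing from 1 untreated list it was neither a shared nor a gained site, and it was singled out after its values were seen. The strongest gained site of all members lay 19.2 kb downstream of NFKBIE, within 135 bp of an HSP90AB1 start, with 60 and 55.2 times the background. An untreated peak lay 137 bp away, and the adjoining site at 18.6 kb was open in every library with 58.5, 71.1, 66.1 and 60.1 in untreated and TWEAK replicates 1 and 2. The other gained sites had percentiles of 2.25 and 12.3 at 5.2 kb downstream, and 58.2 and 52.9 at 74.6 kb upstream.

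The atypical IκB proteins act in the nucleus and can promote as well as limit transcription. NFKBIZ encodes IκBζ, itself an NF-κB target (ENSG00000144802.11, chr3:101827991-101861022, plus strand). Its locus had the fewest sites, 19, and the number with a peak was 10 and 11 in the untreated and 17 and 16 in the TWEAK lists. More sites in both TWEAK lists than in either untreated list was found at 2 of the 8 genes, NFKBIZ and TNFAIP3, and at 9.25% of all genes. The locus held 4 gained sites (21.1% of its sites) and no lost one, and each of the 4 had NFKBIZ as nearest gene. Of these, 2 held an NF-κB match. The first, 35.5 kb downstream, had percentiles of 63.8 and 56, and the closest untreated peak was 18158 bp away. The second, 12.2 kb upstream in an intron, had percentiles of 25.5 and 31.2. The other 2 lay at or below percentile 29.2.

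Among shared sites of NFKBIZ, 3 of 9 ranked higher and 4 lower. The site 2.6 kb upstream of the canonical start, in an intron of a longer transcript (chr3:101846662-101847191), had 10.9 and 14.8 times the background in untreated and 29.2 and 29.8 in TWEAK libraries, and its intervals did not overlap between groups. The start site itself went the other way in rank, with percentiles of 96.7 and 98.4 in untreated and 95.9 and 96.7 in TWEAK libraries. By rank among shared sites the groups overlapped there. The fold over background at this start was 74.4 and 112 in untreated and 75.2 and 91.5 in TWEAK libraries, so that the TWEAK values lay between the untreated ones, but both were the lower ones after division by the median over shared sites.

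BCL3 encodes the nuclear IκB protein that partners with p50 and p52 homodimers (ENSG00000069399.15, chr19:44747705-44760044, plus strand). Of its 96 sites none was gained and 1 was lost. Among 50 shared sites 8 (16%) ranked higher and 19 (38%) lower, both close to the shares of all shared sites, and 3 of those higher were set apart by their intervals. At 9.6 kb upstream (chr19:44738848-44739522) the fold over background was 10 and 16.6 in untreated and 47.9 and 57.4 in TWEAK libraries, a ratio of 3.96. At 16.5 kb downstream (chr19:44764931-44765451) it was 6.97 and 5.37 against 17.5 and 27.6, and at 53.7 kb upstream (chr19:44694247-44695281) 4.46 and 4.92 against 17.9 and 28.7. The first 2 hold an NF-κB match, and the third lies near CEACAM16. A peak centred 38 bp upstream of the canonical start was listed in untreated replicate 1 alone, at percentile 84.1. The adjoining site, 1951 bp wide and 1.1 kb upstream, was open in every library with 39.3 and 40.3 times the background in untreated and 39.9 and 40.1 in TWEAK libraries. Its percentiles of 89.4 and 88.5 against 87.9 and 85.2 put it among the sites lower in rank, while the fold values were nearly equal.

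TNFAIP3 encodes A20, the ubiquitin-editing enzyme that terminates NF-κB signalling (ENSG00000118503.18, chr6:137867214-137883314, plus strand). It was the nearest gene at all of its 35 sites. Of 15 shared sites, 10 (66.7%) ranked higher in both TWEAK libraries and 1 (6.67%) lower, and the median ratio of fold over background was 1.52, the highest of the 8 loci. The number of sites was 21 and 20 in untreated and 30 and 28 in TWEAK lists. The locus also had 5 gained and no lost sites, but the gained ones were weak. Their percentiles ran from 6.62 to 48.6 in the TWEAK libraries, and 1 of them, 17.7 kb upstream, held an NF-κB match with an untreated peak 279 bp away.

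The TNFAIP3 start site, with a pair of NF-κB matches, had 52.7 and 52.3 times the background in untreated and 63 and 83.4 in TWEAK libraries, a ratio of 1.39. It ranked higher in both TWEAK libraries, but after division by the median over shared sites the groups overlapped. Larger differences lay inside the gene. At 6.2 kb downstream (chr6:137873221-137873746, intron) the fold over background was 17 and 22.4 in untreated and 57 and 57.4 in TWEAK libraries. At 7.1 kb downstream (chr6:137874069-137874601, intron) it was 8.36 and 12.5 in untreated and 33.8 and 40.1 in TWEAK libraries, a ratio of 3.54. In both introns the untreated and TWEAK values were well apart. A site between genes 59.2 kb downstream, with the AP-1 but no NF-κB sequence, had 6.69 and 8.95 in untreated and 22 and 28.7 in TWEAK libraries. The single lower site, 8.0 kb upstream, had percentiles of 53 and 56.4 against 42.8 and 47.4 and a ratio of mean fold over background of 1. The strongest shared site of the locus, 43.0 kb upstream, had percentiles between 95.8 and 96.1 in all libraries, which overlapped between the groups. Its fold over background was 66.9 and 76 in untreated and 76.3 and 82.8 in TWEAK libraries, and the site was higher in TWEAK by rank among shared sites but lower after division by the median over shared sites.

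TNIP1 encodes ABIN1, which binds ubiquitin chains and works with A20 (ENSG00000145901.16, chr5:151029945-151093577, minus strand). It had the most sites of the set, 124, and the most that were set apart, 8. Of 54 shared sites, 21 (38.9%) ranked higher and 10 (18.5%) lower. Of the sites set apart, 1 lay 60.7 kb upstream of TNIP1 and 90 bp from an ANXA6 start (chr5:151141494-151141999). The fold over background there was 13.4 and 17.9 in untreated and 109 and 112 in TWEAK libraries, a ratio of 7.08. ANXA6, a calcium-dependent membrane-binding annexin, is the nearer gene, and peak lists do not show which promoter a site serves.

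A further 4 sites lay between 2.5 and 13.2 kb upstream of the canonical TNIP1 start. They were not consecutive, since a site 8.8 kb upstream, with an NF-κB match, was not set apart. At 2.5 kb upstream (chr5:151083285-151083794) the fold over background was 12.5 and 13 in untreated and 98 and 95.8 in TWEAK libraries, a ratio of 7.6. At 4.8 kb it was 7.81 and 5.82 against 48.6 and 50.9, at a merged site 1624 bp wide that held no NF-κB match near its centre. At 6.2 kb (chr5:151086967-151087484) it was 9.2 and 11.2 against 42.9 and 41.2, and at 13.2 kb (chr5:151093995-151094533) 18.1 and 22.8 against 89.3 and 95.8. In each of the 4 the replicates of a group lay close together compared with the gap between groups. Weaker pairs of the same kind lay 23.9 kb upstream, with 5.3 and 8.05 against 30.8 and 29.2, and 39.0 kb downstream in an intron, with 4.46 and 4.92 against 12.9 and 20. The canonical start, already among the strongest peaks, had 119 and 126 in untreated and 142 and 160 in TWEAK libraries, a ratio of 1.23. After division by the median over shared sites the groups overlapped there. The 3 gained sites of TNIP1 were weaker, with percentiles between 12.3 and 51.8, and 2 had an untreated peak within 500 bp. The rule for named sites took the 2 with the largest difference in percentile at each gene, so the other TNIP1 sites, the site 6.2 kb downstream of TNFAIP3 and the site 9.6 kb upstream of BCL3 were singled out after their values were seen.

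**Figure D3:**
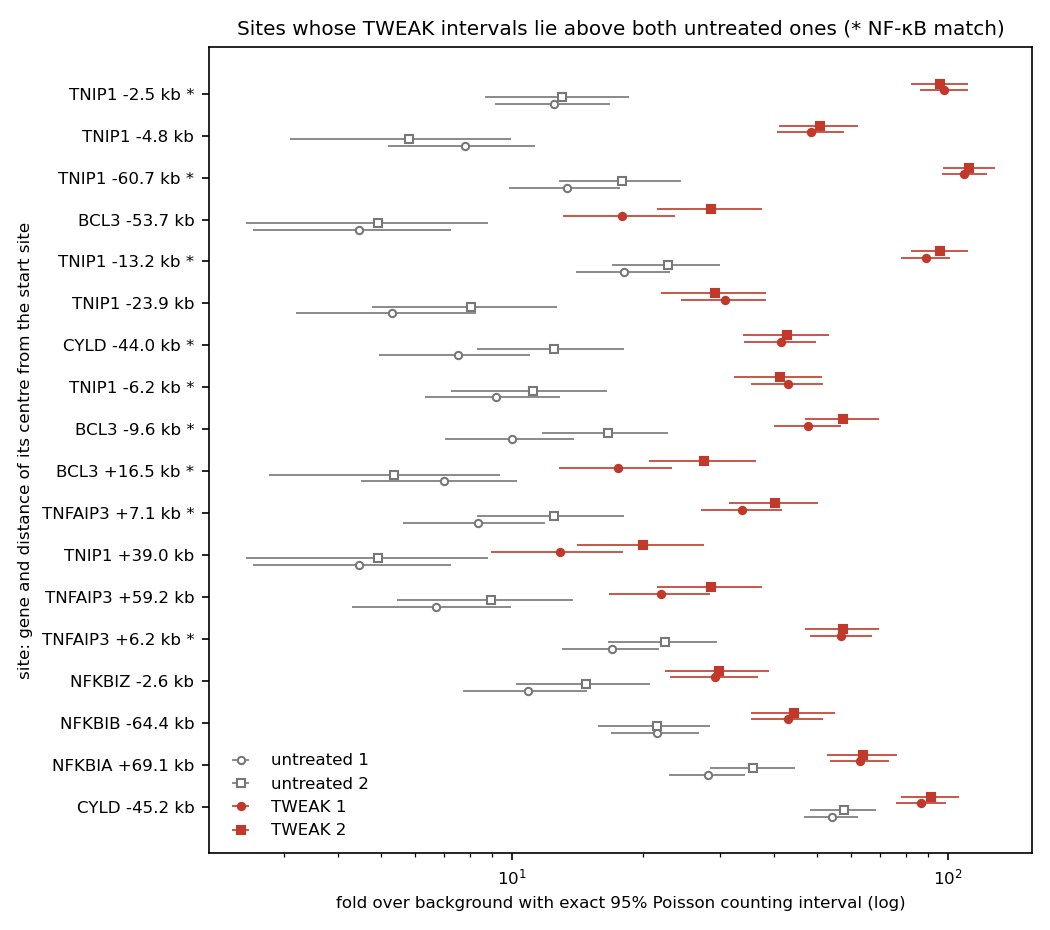
Fold over background (log axis) with exact 95% Poisson counting intervals in each of the 4 libraries for 18 member sites whose TWEAK intervals lie above both untreated ones, ordered by the ratio of the group means. Open grey symbols are untreated and filled red symbols TWEAK libraries, circles being replicate 1 and squares replicate 2, and a star marks an NF-κB match. The ratios run from 1.6 at the bottom to 7.6 at the top.

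CYLD encodes the deubiquitinase that removes linear and K63-linked chains from NF-κB regulators (ENSG00000083799.18, chr16:50742050-50801935, plus strand). Its promoter was among the strongest peaks. At the start, the fold over background was 127 and 180 in untreated and 138 and 162 in TWEAK libraries, so that the groups overlapped, although the TWEAK values were the lower ones after division by the median over shared sites. Of 17 shared sites, 4 ranked higher and 2 lower. By rank among shared sites, 6 were higher and 1 lower, and by scaled fold 4 and 4. The sites set apart, 44006 bp and 45.2 kb upstream, lay within 1 kb of a start of NOD2, the gene of an intracellular sensor of bacterial peptidoglycan. The first (chr16:50697814-50698330), with an NF-κB match, had 7.53 and 12.5 times the background in untreated and 41.4 and 42.8 in TWEAK libraries. The second (chr16:50696564-50697097) had 54.1 and 57.7 in untreated and 87 and 91.5 in TWEAK libraries, a ratio of 1.6. The single gained site, 42.2 kb upstream in an exon of NOD2, had percentiles of 61.2 and 72. CYLD had 3 lost sites and was, with BCL3, one of the 2 members with more lost than gained sites. The lost sites lay 87.8 and 70.2 kb upstream and 39.3 kb downstream, and the strongest of them had percentiles of 58.4 and 60.6.

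**Figure D4:**
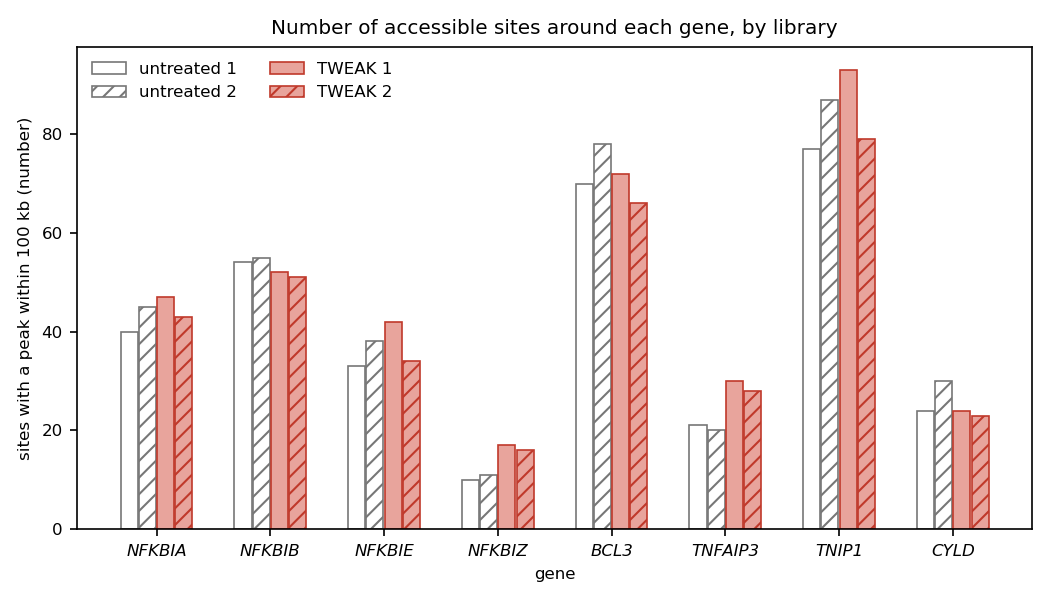
Number of sites with a peak within 100 kb of each gene, by library, on an axis from 0. White bars are untreated and red bars TWEAK libraries, and hatching marks replicate 2. The untreated and TWEAK bars do not overlap for TNFAIP3 (20 and 21 against 28 and 30), NFKBIZ (10 and 11 against 16 and 17) and, in the other direction, NFKBIB.

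Pooled by list, other genes of the pathway had shares of higher-ranked sites near that of all shared sites, and gained shares from 2.69% to 4.73%, beside 4.45% for the members. Around the 5 NF-κB subunit genes (NFKB1, NFKB2, RELA, RELB and REL), 22 of 134 shared sites (16.4%) ranked higher in TWEAK and 51 (38.1%) lower, with 13 gained (4.47%) and 7 lost (2.41%) of 291 sites. Around 11 upstream genes, the kinases, TRAF and cIAP adaptors, TWEAK and its receptor, 35 of 237 (14.8%) ranked higher and 78 (32.9%) lower, with 25 gained (4.73%) and 13 lost (2.46%) of 529 sites. Around 11 further inhibitors and partners, such as NFKBID, OTULIN and TAX1BP1, 48 of 287 (16.7%) ranked higher and 97 (33.8%) lower, with 18 gained (2.69%) and 20 lost (2.99%) of 669 sites. More sites in both TWEAK lists than in either untreated list was seen for 9.25% of all genes. In these lists it was seen for 1 of 5 subunit genes, NFKB2, and for 3 of 11 upstream genes, BIRC2, BIRC3 and CHUK. None of the further inhibitors showed it. BIRC2 and BIRC3 are neighbours with overlapping windows, so they count many of the same sites. Single genes were unequal in every list. Among the 8 feedback genes the share of shared sites ranked higher ran from 7.89% at NFKBIB to 66.7% at TNFAIP3, and among the others from 0% at IKBKB, CHUK and OTULIN to 38.5% at TNIP3, with 34.6% at MAP3K14, 33.3% at REL and 31.2% at NFKB1, close to the 38.9% at TNIP1. These shares are descriptions of 4 libraries, and sites of 1 locus are not independent of each other.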

How the data were processed

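ATAC-seq peak lists of 2 untreated and 2 TWEAK-treated SKBR3 libraries were analysed, grouped by their titles. Per the labels and methods, the authors used Trimmomatic for adaptors, Bowtie2 for mapping to hg38, Bamtools to take out mitochondrial reads, Picard for duplicates and MACS2 to call peaks in each library. Versions, MACS2 settings, any Tn5 shift and the step that made every peak 501 bp wide are not given in the sources used here. The deposited value of each peak was read as an uncorrected -log10 p-value, because 100% of values matched, within 0.01 of a step, the Poisson tail of a whole pileup over 1 background per list (largest error over the 40 lowest distinct values 5.49e-05 to 8.08e-05). The caller's other convention would shift each pileup by 1. Read totals are unknown, so depth is judged from that background.

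Peaks on chromosomes 1 to 22 and X were merged at an overlap of at least 1 bp. Start sites came from GENCODE release 44, and promoters were taken as within 1 kb of one. Each site took the best-ranked peak of a list. Higher or lower means that both TWEAK values lay beyond both untreated ones. NF-κB and AP-1 consensus sequences were searched on both strands within 100 bp of the best-ranked peak's centre. The code (Python 3.11.15, numpy 2.4.6, scipy 1.17.1, pandas 2.3.3) was tested on simulated lists of 20000 sites. It found 200 of 200 planted gained sites, 200 of 200 lost ones and 198 of 200 shared sites with a planted rise. Named sites of a gene were the one at its canonical start, all gained and lost sites, the highest-ranked shared site, and up to 2 rises and 2 falls in percentile. The members, gene lists and motifs were chosen with earlier results of these data known. Reads were not used here and no differential test was run. A pair of sites is counted in the totals but not reported here individually.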

Additional observations from a re-analysis of the deposited data

How the results depend on the processing

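Of 57 recomputed counts, 37 stayed within 1.5 times the value reported and 20 moved beyond it. Within 50 kb of a start, 2 lost sites were found in place of 8. With a motif window of 250 bp on each side, 97 member sites held an NF-κB match (19.6%, against 13.2% of all sites), and with the looser motif 212 did (42.9%, against 33.1%). Loci with more sites in both TWEAK libraries numbered 4 when peaks had a -log10 p of at least 5 (NFKBIE, NFKBIZ, TNFAIP3 and TNIP1, or 50%, against 17.5% of all genes), and 4 when they stood at least 5 times over the background (NFKBIA, NFKBIZ, TNFAIP3 and TNIP1, against 28.7% of all genes), both chosen after the data were seen. TNFAIP3 and NFKBIZ were among them in every one of these settings and without any 1 library. Leaving out 1 library at a time loosens each rule by construction and gave 41 to 58 gained and 20 to 54 lost sites, 67 to 108 sites higher and 83 to 138 lower in rank, 22 to 31 sites set apart by their counting intervals, and 2 to 5 loci with more sites (12.7% to 26.8% of all genes). Gained and lost counts moved without any 1 of the 4 libraries. The other counts that moved were those of higher sites without untreated replicate 2 (87, or 34.7% against 31.4% of all shared sites) or TWEAK replicate 2 (108, or 41.9% against 30.6%), of lower sites without untreated replicate 1 (122, or 47.3% against 54.7%) or TWEAK replicate 1 (138, or 56.6% against 57.6%), of sites set apart without untreated replicate 2 (31, or 12.4% against 7.33% of all shared sites), and of loci without untreated or TWEAK replicate 2 (5 each, against 26.2% and 26.8% of all genes). Without TWEAK replicate 1 or 2, the gained share of member sites was 9.46% and 12.1%, beside 9.09% and 11.6% of all sites. Without untreated replicate 1 or 2 it was 8.44% and 9.94%, beside 6.54% and 7.63%. Without untreated 1, untreated 2, TWEAK 1 and TWEAK 2, the lost share was 11.1%, 6.7%, 7.53% and 4.16%. That of all sites was 15.9%, 11.5%, 9.29% and 6.56%. Ranked higher were 31.4% without untreated replicate 1 and 27.5% without TWEAK replicate 1, beside 22.3% and 20.2%. Ranked lower were 34.7% and 32.2% without untreated and TWEAK replicate 2, beside 42.8% and 42%. The same-numbered libraries did not deviate together (correlation -0.00607 over shared sites). This does not settle whether they were prepared together, which the labels do not say. With the replicate block, 63 sites ranked higher (27%, against 19.8%) and 80 lower (34.3%, against 42.3%). Rank differences at 51 single sites were recomputed 255 times, and 0 called differences changed sign. Leaving out 1 library could neither reverse a called difference nor move one by more than the spread between replicates. All 35 differences that moved further did so by rank among shared sites, of the 51 recomputed in that way. Among them, the NFKBIZ site 40.2 kb upstream went from -17 to -3.74 percentile points, and the TNIP1 site 4.8 kb upstream from 45.6 to 63.7. The replicates, 2 per group, limit every comparison, and a peak absent from a list may lie just under its threshold of 2.79 to 3.79 times the background.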
